A study of Drosophila melanogaster with 8 samples.

Results

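The comparison of dexamethasone with ethanol on the older arrays covers 4 of the 8 arrays of the series, and all 13966 probe sets of that array type that are not controls, of 32735 on both types. Its members were taken by their labels: 2 arrays of S2 cells with CLKGR treated with dexamethasone and cycloheximide (DEX), and 2 given ethanol and cycloheximide (EtOH). The ethanol arrays were the control, and all 4 arrays had CLKGR and cycloheximide. The labels give no dose or time, and they do not say whether replicate arrays are separate cultures; the p-values therefore measure the spread between these arrays only, which may be technical. One EtOH array is labelled as a stable transfection with CLKGR, and the other 3 name S2 cells as their source.

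S2 cells are a cultured line from Drosophila melanogaster embryos with traits of haemocytes, the blood cells of the fly. CLK is the bHLH-PAS activator of the circadian clock: with its partner CYC it switches on per and tim, whose proteins return to inhibit it, and vri and Pdp1, whose proteins repress and activate the Clk gene. CLKGR joins CLK to the part of the glucocorticoid receptor that binds hormone, so that dexamethasone releases the fusion, while cycloheximide blocks translation. The comparison therefore asks which transcripts respond to the released fusion without new protein.

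Levels below are log2 of the deposited intensity of a probe set, and differences are DEX minus EtOH on that scale. The deposited values are linear while GCRMA, the method the submitters name, works on log2, and the base of the conversion was not given in the sources used here. If it was e, each log2 difference is to be multiplied by 0.693, which leaves the p-values of the fit as they are. On each array 63 to 66 probe sets lay above 65535, the top of a 16-bit scan; the highest value was 19.16 as log2 and 13.28 as a natural log. The 4 arrays had median levels between 4.76 and 4.85. Of the 13966 probe sets, 10250 had a mean level of at least 4 and were tested, and 3716 lay below; 0 of the latter had groups that did not overlap and differed by 1 or more. The haemocyte markers of the line were seen in part. Of 13 measured, all were tested, with srp, a GATA factor, between 10.41 and 11.12 and Pxn, a peroxidasin, between 13.62 and 14.24. Others stood near the minimum: NimC1, for a phagocytosis receptor, lay between 4.449 and 4.599, and PPO1, for a prophenoloxidase of crystal cells, between 4.19 and 4.32.

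The direction of these results held for the older arrays as labelled and was not shared by the newer arrays of the series, where DEX was set against a control labelled V. Of 17 genes that rose here and were measured on both types, 16 had both newer DEX arrays below both V arrays, against 17.6% of all 6755 genes. E(spl)m6-BFM is among the 16 although its higher DEX array and lower V array nearly coincided, at 5.27368 and 5.27435. The gene tim is also among the 16, and its older probe set in this fit did not pass. Its newer DEX arrays, at 3.763 and 3.761, lay under the minimum level. It entered only through its V arrays, at 5.01 and 7.58, so its newer effect is not resolved. The effects on the types differed for 14 of the 17 (limma, adjusted p under 0.05), 1 of which, CG15096, had an EtOH level under the minimum. They differed for 27 of the 6755 genes, or 0.4%. The 17 were chosen by their older effect, which is part of this difference, so these shares cannot be set side by side. For vri the newer arrays stood at 10.60 and 10.34 with DEX and at 12.41 and 12.66 with V, an effect of -2.07, and the newer minus the older effect was -6.11 ± 0.33 (SE, adjusted p = 5.3e-04). Whether a label is at odds with its array on either type was not tested.

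**Figure D1:**
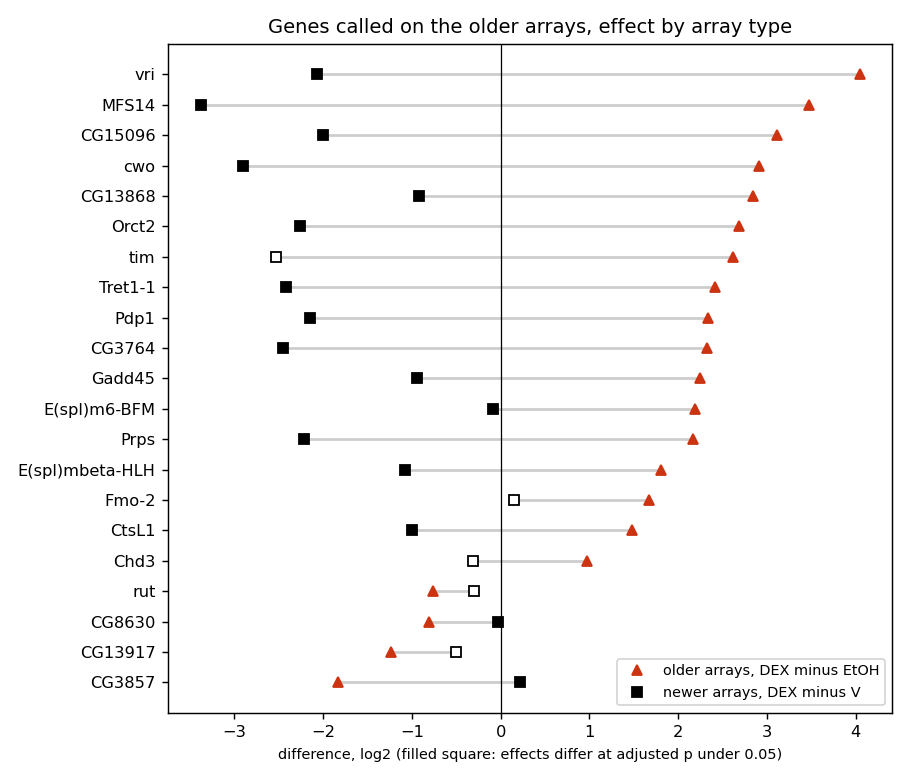
Effect of DEX in log2 units (horizontal axis) for the 21 called genes measured on both array types (rows), as triangles for the older arrays (DEX minus EtOH) and squares for the newer (DEX minus V), by the probe set with the highest mean on each type. Squares are filled where the effects differ at adjusted p under 0.05. For vri the points lie at 4.04 and -2.07, and the tim point of the older arrays is its _s_at probe set, which did not pass. The newer tim point has both DEX arrays under the minimum level and is not resolved. The older rut point is from an _f_at probe set. The newer points of MFS14, vri, Pdp1 and CtsL1 are from _s_at probe sets.

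On the older arrays a short list of transcripts rose with DEX and fewer fell. Genes of the clock feedback loop, membrane transporters, and 2 members of the E(spl) complex were among the named genes that rose. Of the 10250 probe sets, 27 passed, or 0.263%. These were 22 higher (0.215%) and 5 lower (0.0488%), which named 18 higher and 4 lower genes. All 27 had groups that did not overlap, and 23 differed by 1 or more (21 if the base was e). CG15096 and CG8630 had a mean under 4 in 1 group and were tested only through the other, so their sizes and p-values are not resolved. The median difference was 2.38 for those that rose and -1.24 for those that fell, while 94.7% of all tested probe sets differed by less than 0.5. By size alone, 55 probe sets (0.537%) were higher and 20 (0.195%) lower by at least 1 without overlap, or 28 and 5 if the base was e. The spread within groups sets the scale: 104 tested probe sets were at least 1 apart between the 2 EtOH arrays and 117 between the 2 DEX arrays, against 133 to 227 between an EtOH and a DEX array.

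These calls depend on having both EtOH arrays and on the scaling. With either DEX array left out limma estimated infinite prior degrees of freedom. Those fits cannot show whether the calls depend on the DEX arrays as well. With either EtOH array left out limma called 0 probe sets (650 and 707 at an unadjusted p under 0.05, against 600 in the full fit), and with each array centred on its median it called 0 (595). The sizes moved little: centring added 0.02 to each of the 27 differences, and leaving out an EtOH array moved them by at most 0.35. Under centring MFS14 was at 3.50 with an adjusted p of 0.0732, and the prior degrees of freedom of the fit went from 3.95 to 1.72.

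**Figure D2:**
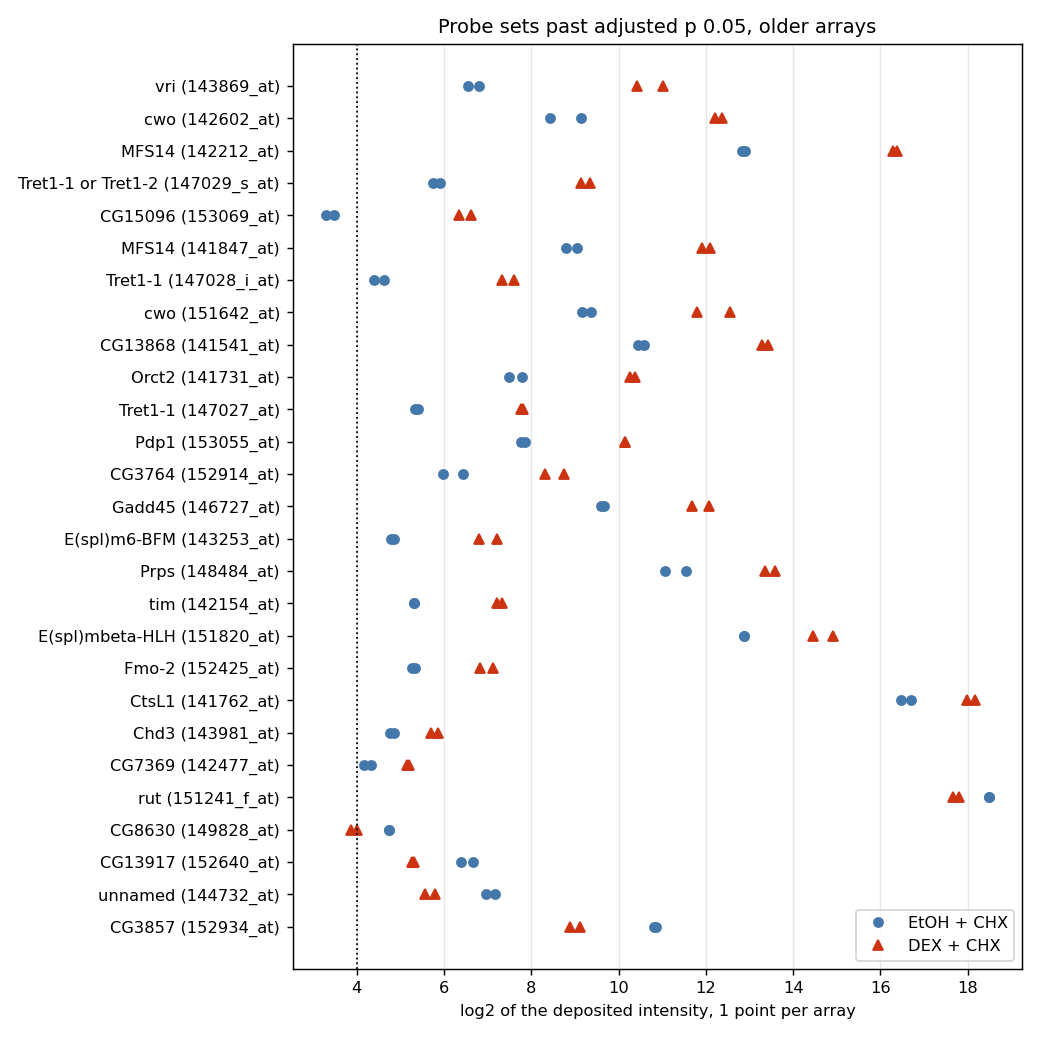
Log2 of the deposited intensity (horizontal axis) on each of the 4 older arrays for the 27 probe sets past adjusted p 0.05 (rows, ordered by difference), with circles for EtOH and triangles for DEX; the dotted line is the minimum mean level of 4. In every row the circles and triangles lie apart, from vri with the largest rise to CG3857 with the largest fall.

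**Figure D3:**
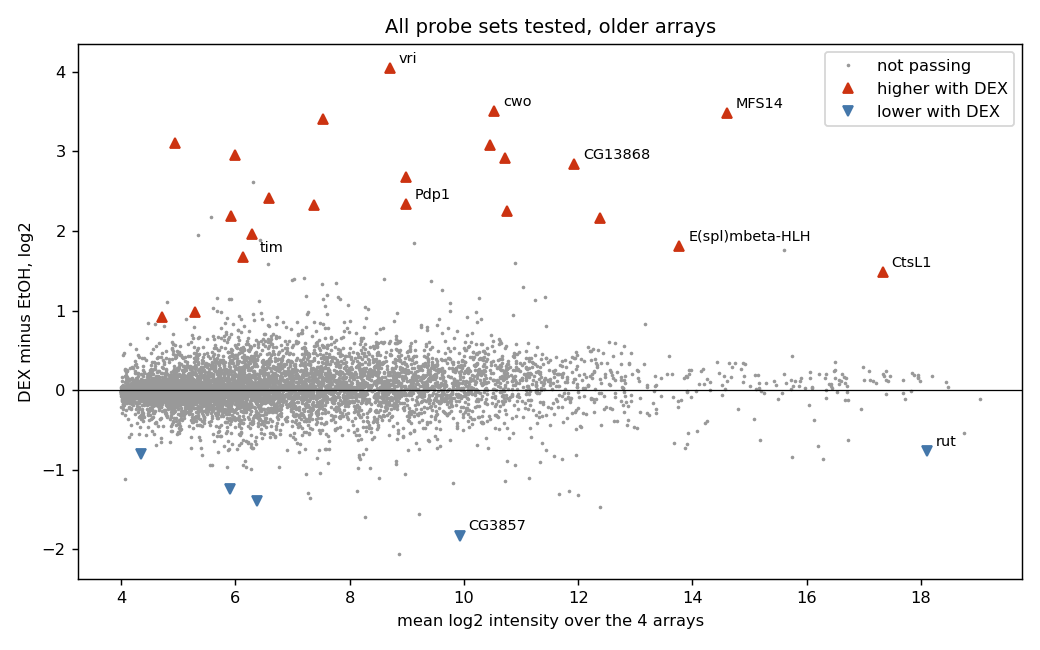
DEX minus EtOH in log2 units (vertical axis) against the mean log2 intensity over the 4 older arrays (horizontal axis), 1 point per tested probe set, with triangles for those past adjusted p 0.05. The 22 higher probe sets occur over most of the range of levels, and most other points lie within 0.5 of 0.

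In the clock loop, 4 of 6 tested genes had a probe set that rose and 0 had one that fell, where 0.217% of all 8303 tested genes had a probe set that rose. The median difference over the 6 genes, each by its brightest probe set, was 2.48, beside -0.01 over all genes. For tim the brightest was a probe set at 2.62 that did not pass, described below. vri, the gene of a bZIP protein that represses Clk, stood at 6.56 and 6.81 on the EtOH arrays and at 10.42 and 11.03 on the DEX arrays, a difference of 4.04 ± 0.26 (SE, adjusted p = 0.0056). That is 16.5-fold on the deposited scale, or 6.97-fold if the base was e. It had the largest difference of all tested probe sets. Pdp1, for the opposing bZIP activator of Clk, stood at 7.77 and 7.86 with EtOH and at 10.15 on both DEX arrays, a difference of 2.34 ± 0.17 (adjusted p = 0.0104). The spread within each group of Pdp1 was under 0.1, far smaller than the difference.

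The gene cwo, for a bHLH repressor that acts on the targets of CLK, was read by 2 probe sets. The first stood at 9.13 and 8.43 with EtOH and 12.36 and 12.21 with DEX, and the second at 9.16 and 9.36 with EtOH and 11.79 and 12.55 with DEX. Both rose, by 3.51 ± 0.27 and 2.91 ± 0.29 (adjusted p = 0.0112 and 0.0297), and their most uneven group differed, EtOH in the first and DEX in the second. The probe sets of tim, for the partner of PER in the repressor complex, did not behave alike. One stood at 5.32 and 5.31 with EtOH and at 7.22 and 7.33 with DEX and rose by 1.96 ± 0.13 (adjusted p = 0.0063). A second, of the _s_at kind that can read more than one transcript, stood at 4.71 and 5.27 with EtOH and 8.23 and 6.997 with DEX and did not pass (adjusted p = 0.143). The third, at 4.48 and 4.66 with EtOH and 4.49 and 4.55 with DEX, had overlapping groups.

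The activators themselves did not pass. Clk stood at 11.39 and 11.00 with EtOH and 10.16 and 10.45 with DEX, a difference of -0.89 ± 0.22 (adjusted p = 0.420) with no overlap. Whether this probe set also reads the transcript of the fusion was not tested. cyc stood at 7.52 and 7.95 with EtOH and 7.75 and 7.87 with DEX, overlapping. per, the repressor partner of tim, and cry, for the blue light receptor of the fly clock, lay below the minimum, at 2.48 to 2.55 and 3.89 to 4.01, and were not tested. Of 7 tested clock kinase, phosphatase and ligase genes 0 passed in either direction, and the nearest was Pp1-87B, a catalytic subunit of protein phosphatase 1, at a difference of 0.33 ± 0.21. Of 12 tested clock output genes and 4 bHLH-PAS factor genes 0 passed as well; tai, for a coactivator with a bHLH-PAS domain, was at -0.54 ± 0.23 (adjusted p = 0.873).

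Among genes for transporters of sugars and organic ions, 4 of 25 tested rose and 0 fell, CG15096 with the limit given above, and the list median was -0.01, equal to that of all genes. MFS14, of the major facilitator family, stood at 12.83 and 12.89 with EtOH and 16.38 and 16.30 with DEX on 1 probe set and at 8.81 and 9.04 against 12.09 and 11.92 on another. Both rose, by 3.48 ± 0.13 and 3.08 ± 0.19 (adjusted p = 0.0016 and 0.0056), and the first had the smallest p-value in the table. CG15096, the next gene to MFS14 in the RefSeq order, stood at 3.29 and 3.47 with EtOH and 6.63 and 6.35 with DEX. Its EtOH level was under the minimum and it was tested only because its DEX arrays were high, so neither the size nor the p-value of this difference is resolved. The 18 genes that rose had 36 neighbours, of which 26 were tested, and other than MFS14 and CG15096 themselves the remaining 24 did not pass, with differences from -0.50 to 1.04.

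The trehalose transporter gene Tret1-1 and its neighbour and close relative Tret1-2 could be told apart. On the 2 probe sets of Tret1-1 alone, EtOH arrays stood at 5.33 and 5.41 and DEX arrays at 7.82 and 7.76 on the first, and at 4.61 and 4.40 against 7.32 and 7.61 on the second, an _i_at probe set. Both rose, by 2.42 ± 0.14 and 2.96 ± 0.16 (adjusted p = 0.0045 and 0.0041). A probe set annotated to both genes rose by 3.41 ± 0.17, and the probe set of Tret1-2 alone stood at 6.59 and 6.65 with EtOH and 6.63 and 6.61 with DEX, a difference of 0.00 ± 0.13. Orct2, for an organic cation transporter, stood at 7.78 and 7.496 with EtOH and 10.25 and 10.39 with DEX and rose by 2.68 ± 0.19 (adjusted p = 0.0099). Orct, its neighbour, was at 7.78 and 7.72 with EtOH and 8.69 and 8.89 with DEX; the difference of 1.04 ± 0.17 missed the threshold (adjusted p = 0.166). CG6231, from the same list, stood at 4.48 and 4.50 with EtOH and 7.09 and 6.23 with DEX and did not pass either (adjusted p = 0.0665), its DEX arrays lying far apart. MFS15, on the other side of MFS14, was at 0.44 ± 0.14 (adjusted p = 0.669). Tret1-2, Orct and MFS15 were named after their values were seen, as neighbours of genes that rose.

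The E(spl) complex holds Notch-responsive genes side by side, for bHLH repressors and for small Bearded-family proteins. Along it, 2 genes rose and others between them did not pass or lay below the minimum. E(spl)mgamma-HLH, on the other side of E(spl)mbeta-HLH, and E(spl)m8-HLH had no probe set annotated to them alone and are not described. In gene order, E(spl)mbeta-HLH, for a bHLH repressor, stood at 12.86 and 12.88 with EtOH and 14.45 and 14.91 with DEX and rose by 1.81 ± 0.19 (adjusted p = 0.0352). Its neighbour E(spl)malpha-BFM was at 4.12 and 4.25 against 4.22 and 4.45, overlapping. E(spl)m3-HLH was at 5.69 and 5.71 with EtOH and 6.34 and 5.91 with DEX, 0.43 ± 0.17 apart (adjusted p = 0.833). E(spl)m6-BFM, of the Bearded family, stood at 4.80 and 4.86 with EtOH and 7.22 and 6.81 with DEX and rose by 2.19 ± 0.17 (adjusted p = 0.0112). Both of its neighbours, E(spl)m5-HLH and E(spl)m7-HLH, lay below the minimum on every array, as did E(spl)m2-BFM and Kaz-m1. E(spl)mdelta-HLH, E(spl)m4-BFM and gro, for the corepressor of these proteins, differed by -0.01, 0.06 and 0.16 by their brightest probe sets. Of the wider list of E(spl), Bearded and other Notch target genes, 2 of 13 tested rose and 0 fell, with a median of 0.13. hry, for the bHLH repressor Hairy, was at 9.76 and 9.59 with EtOH and 10.71 and 10.97 with DEX; its groups did not overlap, and the difference of 1.16 ± 0.20 missed the threshold (adjusted p = 0.166). Of 9 tested genes of the Notch pathway itself 0 passed, and their median was -0.04.

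**Figure D4:**
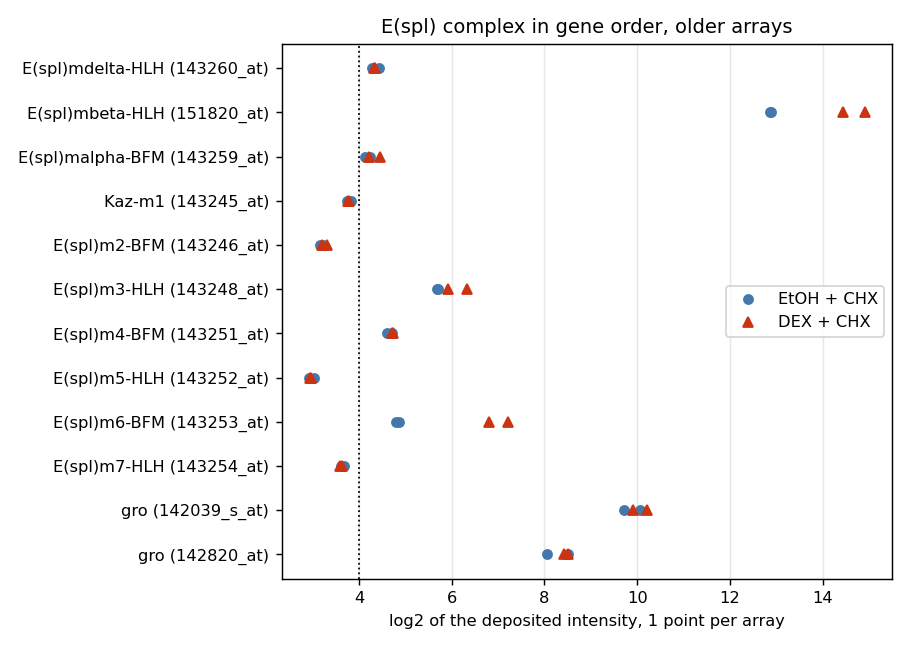
Log2 of the deposited intensity (horizontal axis) on each of the 4 older arrays for the measured genes of the E(spl) complex (rows in gene order, 2 rows for gro), with circles for EtOH and triangles for DEX and the minimum mean level of 4 dotted. The row of E(spl)mbeta-HLH and that of E(spl)m6-BFM show DEX arrays well above EtOH arrays, and the other rows lie close together or overlap.

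The other genes that rose belong to several functions. Gadd45, a stress-inducible gene, stood at 9.67 and 9.59 with EtOH and 11.69 and 12.06 with DEX, a rise of 2.24 ± 0.21 (adjusted p = 0.0226). It was the only member called among 14 tested genes of ER and integrated stress, whose median was -0.01, and among 14 of AP-1 and JNK, whose median was also -0.01. crc, for the fly ATF4, was at 0.49 ± 0.21 and slpr, a JNK pathway kinase, at -0.70 ± 0.12, both short of the threshold.

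Among enzymes, Prps, for phosphoribosyl pyrophosphate synthesis, stood at 11.54 and 11.05 with EtOH and 13.58 and 13.35 with DEX and rose by 2.16 ± 0.22 (adjusted p = 0.0339). CtsL1, for a lysosomal cathepsin, stood at 16.47 and 16.71 with EtOH and 17.98 and 18.17 with DEX and rose by 1.48 ± 0.12 (adjusted p = 0.0127). Fmo-2, for a flavin-containing monooxygenase, rose from 5.27 and 5.34 to 6.82 and 7.13. In each of these 3 genes the higher EtOH array lay at least 1 below the lower DEX array. Chd3, for a chromatin remodelling ATPase, rose from 4.77 and 4.85 to 5.70 and 5.87, by 0.98 ± 0.11 (adjusted p = 0.0475).

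Of the genes known by a CG number, CG13868 stood at 10.58 and 10.44 with EtOH and 13.43 and 13.28 with DEX and rose by 2.84 ± 0.17 (adjusted p = 0.0056). CG3764 stood at 5.99 and 6.44 with EtOH and 8.76 and 8.32 with DEX and rose by 2.32 ± 0.24 (adjusted p = 0.0339). CG7369 rose by 0.92 ± 0.09 on 1 probe set, from 4.17 and 4.34 to 5.20 and 5.15, while its other stood at 4.16 and 4.27 with EtOH and at 4.15 and 4.18 with DEX. In all, 5 of the 18 genes that rose had more than 1 probe set; 8 of their 11 probe sets rose, and the 3 that did not were those of tim and CG7369 given above. Of the 22 probe sets that rose, 5 had an EtOH mean under 5 and so started near the minimum, where sizes are least certain.

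The probe sets that fell were fewer and changed less. CG3857 stood at 10.86 and 10.82 with EtOH and 9.13 and 8.89 with DEX and fell by 1.83 on the log2 scale (SE 0.19, adjusted p = 0.0339). CG13917 stood at 6.38 and 6.66 with EtOH and 5.26 and 5.31 with DEX, and an unnamed probe set at 6.97 and 7.17 against 5.80 and 5.56; both fell (adjusted p = 0.0475). CG8630 stood at 4.75 on both EtOH arrays and at 3.87 and 4.01 with DEX, under the minimum, so neither its size nor its error is resolved. The call on rut, for the calcium-responsive adenylyl cyclase, came from an _f_at probe set, a kind that can read several genes of a family. That probe set stood at 18.49 on both EtOH arrays and at 17.65 and 17.80 with DEX, and fell by 0.76 (adjusted p = 0.0352). The plain probe set of rut stood between 4.99 and 5.07 on all 4 arrays, a difference of -0.03 ± 0.09, so a fall of rut itself was not seen there.

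Below the threshold, 35 further probe sets were higher with DEX and 17 lower by at least 1 without overlap. Those with the largest positive differences among genes with no call, after CG6231, were CG3348 at 1.95 ± 0.38, phu at 1.88 ± 0.37 and cbt, for a zinc finger factor that responds to sugar, at 1.76 ± 0.36. For each of these 3 the arrays of a group lay far apart: cbt stood at 15.24 and 14.21 with EtOH and 16.76 and 16.20 with DEX. CG7530 was at 1.60 ± 0.19 and CG4766 at 1.59 ± 0.30. The rest of the 15 largest were Nazo, FASN1, Hex-A, pnr, Mob2, CG10366, CG42675, CG8046 and Rim2, between 1.19 and 1.41. FASN1 encodes a fatty acid synthase and pnr a GATA factor. Adjusted p over these 15 ran from 0.0615 for CG7530 to 0.403 for CG8046.

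On the lower side the largest differences without a call were tara at -1.59 ± 0.56, CG13674 (an _f_at probe set) at -1.55 ± 0.21 and CNBP at -1.31 ± 0.32. tara stood at 9.85 and 8.26 with EtOH and 7.92 and 7.01 with DEX, so that its EtOH arrays differed from each other by as much as the groups did. bun, TrissinR (an _r_at probe set), Ndae1, CG31145, bin3, Pdcd4 and Non1 lay between -1.30 and -1.06. Ndae1, for a sodium-driven anion exchanger, came nearest to the threshold with CG13674, at adjusted p of 0.0905 and 0.0861.

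The remaining lists held 0 called genes in either direction, beside the background of 0.217% and 0.0482%. Of 11 tested glycolysis genes, 9 had a higher DEX mean, as had 42.3% of all tested genes, and the list median was 0.19. All but Pfk and Hex-C had a mean level above 6. Over the 4098 probe sets with a mean of at least 6 the median was 0.05, against -0.01 over all tested. Hex-A, for the hexokinase that opens the pathway, stood at 7.82 and 8.001 with EtOH and 9.37 and 9.24 with DEX, a difference of 1.39 ± 0.18 (adjusted p = 0.0772), and the next, Eno, was at 0.26 ± 0.19. Of 13 insulin and TOR genes, Akt, a kinase of insulin signalling, stood at 7.08 and 7.44 with EtOH and 8.16 and 8.65 with DEX (adjusted p = 0.268). REPTOR, for a transcription factor held back by TORC1, stood at 10.68 and 10.65 with EtOH and 11.40 and 12.21 with DEX (adjusted p = 0.423). Neither gene had overlapping groups.

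Of 20 ribosomal protein genes, 14 had a higher DEX mean, beside the same 42.3%, and all 20 lay between -0.10 and 0.20. All but RpS29 had a mean level of at least 14. Of 109 plain _at probe sets at that level, 23 had a lower DEX mean. Their median was 0.11, beside 0.13 for the list. The 109 include the ribosomal protein probe sets at that level, so this comparison cannot show whether the list stood out. The list medians were -0.05 for 19 cell cycle genes, 0.09 for 11 apoptosis genes, -0.02 for 19 immune genes and -0.01 for 28 cytochrome P450 genes, and nearer to 0 for 10 heat shock and 11 ecdysone response genes. The nearest to the threshold in these lists were Cyp12c1, a P450 gene, at 0.67 ± 0.13 (adjusted p = 0.227), and Dcp-1, an effector caspase gene, at 0.68 ± 0.14 (adjusted p = 0.285). Cdk4 was at 0.75 ± 0.29 and Hsc70-4, for a constitutive chaperone, at 0.55 ± 0.19. Among haemocyte markers Col4a1, for a collagen IV chain, was at -0.66 ± 0.21 (adjusted p = 0.669) and srp at 0.53 ± 0.19 (adjusted p = 0.738). The tested markers of neurons (6), muscle (4), fat body and gut (4), germline (4) and glia (3) also gave 0 calls, with list medians from -0.08 to -0.01.

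**Figure D5:**
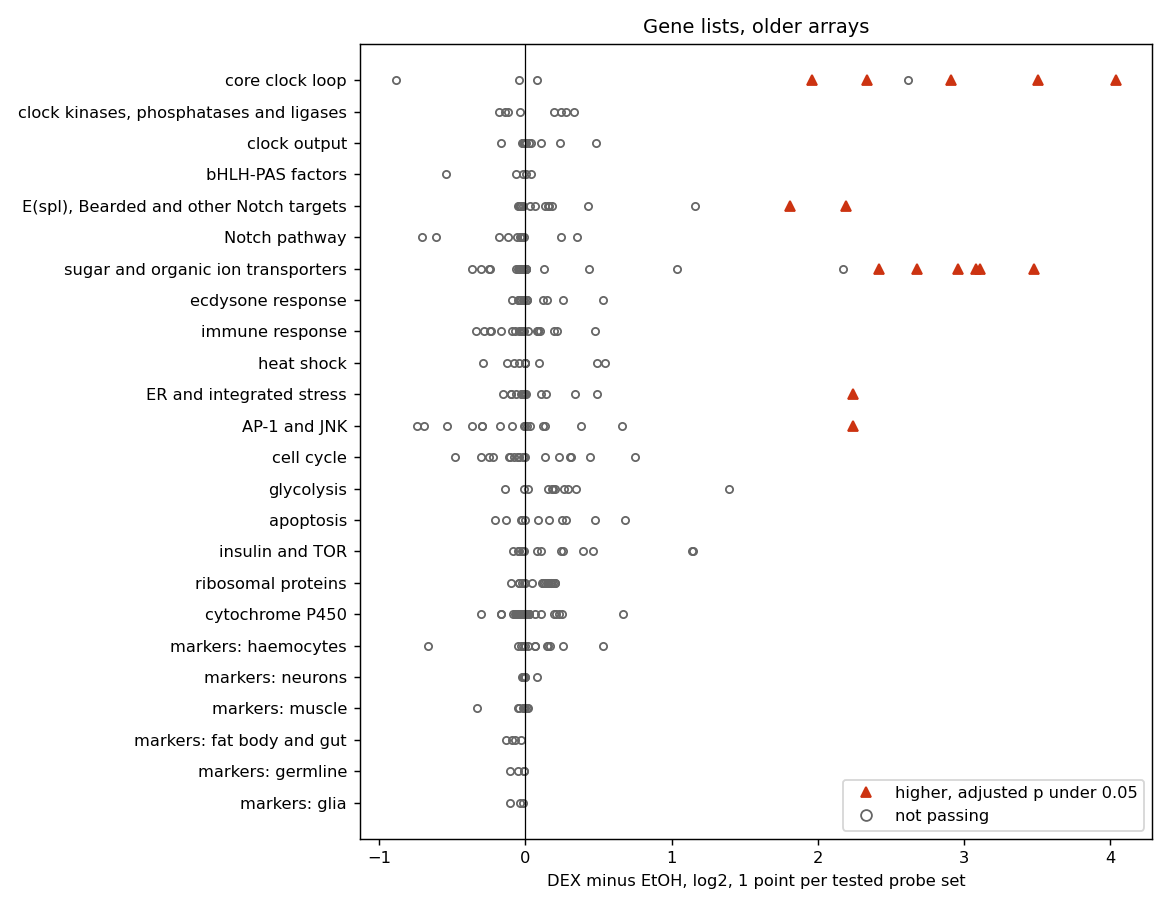
DEX minus EtOH in log2 units (horizontal axis) for every tested probe set of the 24 gene lists (rows) on the older arrays, with triangles for probe sets higher at adjusted p under 0.05 and open circles for the rest. Triangles occur in 5 lists, and Gadd45 is the triangle of both stress lists; most other points lie within 0.5 of 0.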

How the data were processed

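RNA of S2 cells was read on Affymetrix arrays, and each deposited table holds an intensity for every probe set on every array. These intensity values come from GCRMA, per the submitters' processing notes, a method that corrects background by probe sequence, normalises by quantiles and summarises each probe set (version not given in the sources used here). The number of arrays, 2 per group, limits the precision.

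Values were turned to log2 without a pseudocount. The 44 control probe sets of the older arrays were left out, and probe sets with a mean log2 of at least 4 were tested by lmFit and eBayes of limma 3.58.1 (R 4.3.3), with a trend on mean intensity. Tests were two-sided, adjusted by Benjamini-Hochberg over all 10250, with a threshold of 0.05. This fit has 2 residual degrees of freedom. Every adjusted p is from limma. On simulated data with 200 changed probe sets, the fit recovered 39 of 50 changed by 1 on log2 and 50 of 50 changed by 2. There were 10 false calls over the whole simulation. It held far more changed probe sets than the 27 called here, so these shares do not measure what was missed in the data. On the arrays themselves the _s_at probe set of tim at 2.62 and CG6231 at 2.17 did not pass. The difference between array types was fitted on 1 probe set per gene and type, with group means within each type. The planned search of promoters for E-boxes was not run, since no promoter sequences were used here.

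Of the non-control probe sets, 12442 had 1 gene symbol, 327 several and 1197 none in the platform annotation, and 12393 matched a gene of RefSeq assembly Release 6 plus ISO1 MT, whose symbols were used. Probe sets with several symbols named no gene. Gene lists were described by counts and medians, without a test. The members and lists were chosen with earlier results of these data known. Genes named were all with a call, the clock loop, the E(spl) complex, called neighbours, the 15 highest and 10 lowest differences without a call or overlap, and up to 4 per other list by p. Alternatives were other scalings, filters, a pseudocount of 16, other variance priors, a replicate block and leaving out each array.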

Additional observations from a re-analysis of the deposited data

Results flagged for a closer look

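The genes below had a call on the older arrays. A direct test also found their DEX effect to differ between the array types (limma, adjusted p under 0.05). The older effect that gave the call is part of this difference. The controls were EtOH on the older type and V on the newer. Differences are newer minus older. In the clock loop they were -5.81 for cwo, -4.48 for Pdp1 and -6.11 for vri. Among transporter genes they were -5.10 for CG15096, -6.85 for MFS14, -4.95 for Orct2 and -4.84 for Tret1-1. In the E(spl) complex they were -2.27 for E(spl)m6-BFM and -2.88 for E(spl)mbeta-HLH, and among other genes that rose -3.76 for CG13868, -4.78 for CG3764, -2.48 for CtsL1, -3.18 for Gadd45 and -4.38 for Prps. Among genes that fell on the older arrays they were 0.78 for CG8630 and 2.05 for CG3857. Genes without an older call made up the rest of the 27 that differed. Among them were E(spl)m3-HLH at -2.65, CG6231 at -4.29 and Trp1 at 1.69. CG15096 (with EtOH) and CG8630 (with DEX) lay under the minimum level of 4 in 1 older group, so neither the sizes nor the tests of these 2 are resolved. On the newer arrays E(spl)m6-BFM stood at 5.27 on both DEX arrays and at 5.44 and 5.27 on the V arrays, an effect of -0.08, so this gene differed between types by its rise on the older arrays alone. The probe sets of MFS14, vri, Pdp1 and CtsL1 on the newer type end in _s_at and are uncertain.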

How the results depend on the processing

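The full fit called 27 probe sets. The count was 0 with each array centred on its median, 4 with quantile normalisation repeated, 73 with no filter, 13 with a minimum of 6 and 12 without the intensity trend. It was 8 with centring over the tested probe sets, an alternative chosen after seeing the data. Leaving out 1 array gave between 0 and 447 calls; with 1 DEX array alone limma estimated infinite prior degrees of freedom, so those counts cannot be set beside the others. The smallest adjusted p was 0.0732 with median centring, and 0.208 and 0.144 without EtOH replicate 1 and 2. The 4 calls under quantile normalisation and the 13 with a minimum of 6 (where 20 of the 27 were tested) were all among the 27. With the replicate block, which rests on a number that 1 EtOH array does not carry, 34 passed, 25 of them shared; the deviations of same-numbered arrays correlated at 0.264. The 75 probe sets apart by 1 without overlap became 63 to 81, within 1.5 times, under the other scalings, filters and pseudocount. This count was not repeated with an array left out, and it was 28 higher and 5 lower if the base was e. The 27 genes with effects that differ between types became 16 with plain _at probe sets, where fewer genes were tested, and 8 to 19 without 1 older array. The sign turned for 2 probe sets with no call. cyc was at -0.0088 with quantile normalisation and between -0.14 and 0.30 with 1 array left out, and the third probe set of tim was between -0.13 and 0.044 with 1 array left out, the latter without EtOH replicate 2.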

Other observations

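Probe sets of the _f_at kind with a mean level of at least 14 were mostly lower with DEX, a pattern seen after the values were known and not tested. There were 9, and in 7 both DEX arrays lay below both EtOH arrays, with a median difference of -0.63 over the 9. Over all levels this held for 24 of 44 _f_at probe sets and for 13.6% of the 10250 tested. Of 109 plain _at probe sets at that level, 3 had both DEX arrays below both EtOH arrays, and the median was 0.11. The 7 were annotated to rut, dpr3, CG34347 and mam, or carried no single symbol, and rut alone passed. The dpr3 probe set stood at 16.16 and 16.17 with EtOH and 15.24 and 15.40 with DEX. That of mam, a Notch coactivator gene, stood at 16.63 and 16.46 with EtOH and 15.73 and 15.95 with DEX. The plain probe set of mam stood at 7.51 and 7.44 with EtOH and 7.46 and 7.38 with DEX, overlapping. A fall of mam itself was thus not seen there.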
